A study of Mus musculus with 16 samples.

Results

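The genes described here are the nuclear-encoded subunits of mitochondrial complexes II, III, IV and V. They were chosen by symbol, as Sdha to Sdhd, Cyc1 and all symbols starting with Uqcr, with Cox4 to Cox8 or with Atp5. The rule found 49 of 41079 genes of the counts table, of which 4 belong to complex II, 9 to complex III, 18 to complex IV and 18 to complex V. Complex II, succinate dehydrogenase, passes electrons from succinate to coenzyme Q and is also an enzyme of the citric acid cycle. Complex III moves electrons from coenzyme Q to cytochrome c, complex IV (cytochrome c oxidase) passes them to oxygen, and complex V (ATP synthase) makes ATP from the proton gradient that complexes III and IV help to build. In liver these complexes supply ATP for gluconeogenesis and urea synthesis and take up electrons from fat oxidation, and all but complex II also hold subunits encoded in mitochondrial DNA.

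The measurement was RNA-seq of liver from C57BL/6J-background mice aged 20 to 22 months on chow, with 4 mice in each of 4 groups: male CRE-, male LKO, female CRE- and female LKO. All mice carried a Gcgr gene, which encodes the glucagon receptor, with part of it flanked by LoxP sites. LKO mice also carried an Albumin-Cre transgene, for deletion of that part in liver, while CRE- mice lacked the transgene and kept the receptor. The comparisons ask how expression in old LKO livers differs from that in CRE- livers of the same sex. Libraries held between 33268424 and 56488920 counted reads. Levels are given in CPM, reads of a gene scaled to a common library total and adjusted for library composition, and the members took up between 0.441% and 1.07% of the reads of a library.

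Gcgr, the targeted gene, was at 190, 193, 127 and 190 CPM in the male CRE- libraries and at 117, 136, 130 and 160 CPM in the male LKO libraries. In females it was at 162, 208, 201 and 180 CPM in CRE- and at 48.8, 132, 119 and 93.6 CPM in LKO. Female LKO libraries were all below female CRE- libraries, and edgeR gave a log2 fold change of -0.93 (SE 0.247) at an adjusted p of 0.0443. In males the edgeR log2 fold change was -0.37 at an adjusted p of 0.671, and male CRE- replicate 3, at 127 CPM, lay among the LKO libraries. Without 2 libraries described below the values were -0.69 in females and -0.50 in males. The counts cover exons outside the deleted part, so they check the labels only in part. The tissue label was checked against 8 hepatocyte markers, all present in the counts table, with Alb (albumin) the most abundant and a summed level between 77113 and 159370 CPM over the libraries. Bulk RNA cannot tell fewer cells of a type from less RNA per cell.

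Libraries from male CRE- replicate 3 and female LKO replicate 1 stood apart in the members, and the main members and most lists are also described without them. The median log2 CPM of the 47 tested members, relative to each gene's median over all libraries, was -1.20 in male CRE- replicate 3 and -1.47 in female LKO replicate 1, and between -0.33 and 0.52 in the other libraries. Within their groups, male CRE- replicate 3 was the lowest library for 44 members and female LKO replicate 1 for 44, and so was female CRE- replicate 1 for 43, though its median was -0.14. Over all 16 libraries, female LKO replicate 1 was the lowest for 39 members and male CRE- replicate 3 for 4. Other genes of like length, 3573 tested genes with a Length from 433 to 1905 bases, were also low in both, at -0.73 and -0.53. Long and short genes differed there: over tested genes outside the members, log2 CPM relative to the other libraries was higher by 0.338 per doubling of Length in male CRE- replicate 3 and by 0.262 in female LKO replicate 1, and lay between -0.110 and 0.0454 in the others. Genes shorter than 1 kb held 4.53% and 4.79% of the reads there, against 6.99% to 9.61% elsewhere. The sample records give no RNA integrity values, and the part of RNA quality in these differences was not tested. The members are short, with a median Length of 757 bases for all 49, and 29 of them lie under 1 kb.

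**Figure D1:**
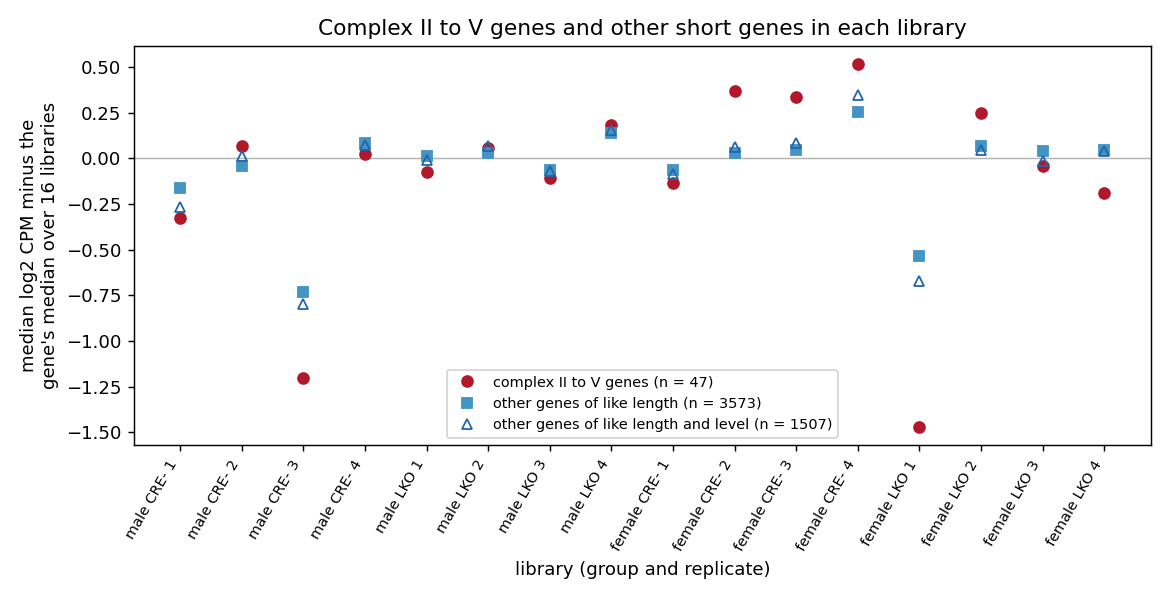
Median log2 CPM relative to each gene's own median over the 16 libraries (vertical axis, log2 units) in each library (horizontal axis), for 47 complex II to V genes (circles), 3573 other tested genes of like length (squares) and 1507 of like length and level (triangles). The circles for male CRE- replicate 3, at -1.20, and female LKO replicate 1, at -1.47, lie below all others, and below the squares and triangles of the same libraries.

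No member passed the threshold of an adjusted p under 0.05 in any comparison when edgeR's quasi-likelihood test was run on all libraries together after the filter on low counts. Other settings, some of which gave calls, are described below. In females the members lay below 0 in 43 of 47 cases. Their median log2 fold change was -0.50, beside 0.035 over all 16742 tested genes. The 4 above 0, Cox4i2, Cox6a2, Cox6b2 and Cox7a1, are complex IV isoforms with 134 to 1398 reads over all libraries. Over all genes edgeR called 710 in that comparison, or 4.24%. At an unadjusted p under 0.05 there were 10 (21.3%) members in females, beside 21.4% of all tested genes. DESeq2 called 2 members, Sdha and Sdhb, beside 1816 genes (10.8%) in all. limma-voom with sample weights called 4, these 2 with lower levels in LKO and Cox6a2 and Cox6b2 with higher ones, beside 1976 genes (11.8%) in all. The female log2 fold change of Cox6a2 was 3.97 with limma-voom and 1.07 with edgeR, from 48 reads in CRE- and 99 in LKO. Cox6b2 had 25 reads in female CRE- and 75 in female LKO.

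In males the members lay above 0 in 43 of 47 cases, with a median of 0.31 beside -0.0078 for all tested genes. edgeR called 76 genes in males, or 0.454%, and 3 (6.38%) members were at an unadjusted p under 0.05, beside 9.53% of all tested genes. DESeq2 called 1 member, Cox6a2, beside 339 genes (2.02%) in all, and limma-voom 0 members beside 148 genes (0.884%). The sex-by-genotype term had a median of -0.79 over the members, beside 0.035 over all tested genes. For this term edgeR called 0 genes (0%), and 12 (25.5%) members were at an unadjusted p under 0.05, beside 15.96% of all tested genes. DESeq2 called 1 member there, Cox8b, beside 371 genes (2.22%) in all, and limma-voom 0 members beside 29 genes (0.173%).

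Without male CRE- replicate 3 and female LKO replicate 1, a setting chosen after seeing that the members were low in both, the median of the members was 0.071 in males and -0.24 in females, and the sex-by-genotype median was -0.32. edgeR called 0 members in each comparison there, beside 77 genes in males (0.454%), 361 in females (2.13%) and 0 for the sex-by-genotype term (0%). At an unadjusted p under 0.05 there were 2 (4.26%), 6 (12.8%) and 3 (6.38%) members, beside 8.82%, 18.7% and 10.9% of all tested genes. Leaving out a low CRE- library lowers male fold changes, and leaving out a low LKO library raises female ones. The moves toward 0 and the fewer small p-values thus follow in part from the choice of libraries. The male median of all members was then closer to that of all tested genes, 0.0045, and the female median stayed below theirs, 0.021, with 42 of 47 members below 0.

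Other genes of like length were set beside the members. In females with all libraries, the like-length genes had a median log2 fold change of -0.12, and those of like length and level had -0.22, against -0.50 for the members. In males the medians were 0.21, 0.25 and 0.31. Without the 2 libraries the female medians were 0.015, -0.056 and -0.24, and the male medians 0.077, 0.087 and 0.071. The members thus lay further below 0 than both sets in females, with and without the 2 libraries, while in males without the 2 libraries they lay no higher than either set. These are descriptions with no test between the lists, and the 2 libraries were left out after the members were seen to be low there. When a smooth trend of each library with Length was removed, the median of the members was 0.15 in males and -0.52 in females, and edgeR called 3 members in females, Sdhb, Uqcrb and Cox7c, all lower in LKO, beside 6.96% of all tested genes. At an unadjusted p under 0.05 there were 31 (65.96%) members in females then, beside 24.6% of all tested genes and 498 of 1507 genes of like length and level. The medians of like-length genes and of those of like length and level were 0.041 and 0.075 in males and -0.077 and -0.16 in females. In males, at 0.436% of all genes, and for the sex-by-genotype term, at 0%, edgeR called 0 members with the trend removed, with 3 (6.38%) and 20 (42.6%) members at an unadjusted p under 0.05, beside 9.54% and 16.7% of all tested genes. With the trend removed and both libraries left out, edgeR called 0 members in each comparison, beside 0.437% of all genes in males, 2.8% in females and 0% for the sex-by-genotype term, and the female median was -0.36. The members at an unadjusted p under 0.05 were 2 (4.26%), 18 (38.3%) and 7 (14.9%), beside 8.93%, 20.7% and 12.6% of all tested genes.

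**Figure D2:**
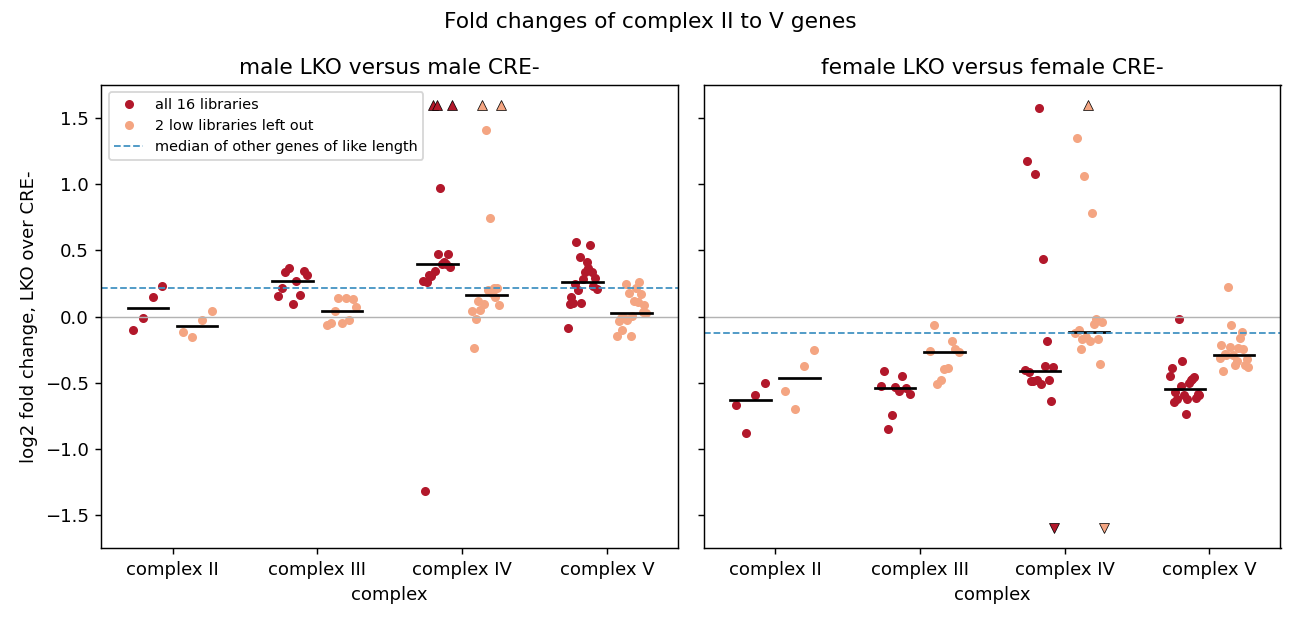
Log2 fold change of LKO over CRE- (vertical axis) of each tested gene, by complex (horizontal axis), in males (left) and females (right), with all 16 libraries (dark circles) and without 2 low libraries (light circles). Black lines are medians, the dashed line is the median of other genes of like length with all libraries, and triangles mark values beyond the axis. In females the median of complex II was -0.63 with all libraries and -0.47 without the 2.

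Complex II is made of 4 subunits, the flavoprotein Sdha, the iron-sulfur protein Sdhb and the membrane anchors Sdhc and Sdhd. In females Sdhb was at 171, 239, 234 and 321 CPM in female CRE- and at 85.0, 184, 151 and 103 CPM in female LKO. The groups overlapped, since female LKO replicate 2 lay above female CRE- replicate 1, and female LKO replicates 1 and 4 were the lowest. The edgeR log2 fold change was -0.88 (SE 0.257) at an adjusted p of 0.0614. Sdha was at 434, 593, 586 and 514 CPM in female CRE- and at 277, 441, 359 and 264 CPM in female LKO, with female LKO replicate 2 above female CRE- replicate 1. Its edgeR log2 fold change was -0.66 (SE 0.207) at an adjusted p of 0.0761. Both members were named above as called by other tools, and edgeR called both without female LKO replicate 2, at adjusted p of 0.0250 and 0.0302, where it called 7.66% of all genes. Without the 2 libraries their fold changes were -0.70 and -0.56.

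The anchors Sdhc and Sdhd had female log2 fold changes of -0.59 and -0.50, and -0.37 and -0.26 without the 2 libraries. In males Sdha was at 398, 624, 479 and 447 CPM in male CRE- and at 355, 489, 482 and 491 CPM in male LKO. Male LKO replicate 1 was the lowest of the 8 libraries and male CRE- replicate 2 the highest. The male edgeR fold changes were small in all 4 genes, from -0.10 for Sdha to 0.23 for Sdhd, and -0.12, -0.16, -0.025 and 0.045 for Sdha, Sdhb, Sdhc and Sdhd without the 2 libraries. Per kilobase of Length, the 4 complex II genes were within a narrow range, from 133 CPM for Sdhd to 167 for Sdhb, as means over all libraries.

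In complex III, Uqcrfs1 (the Rieske iron-sulfur protein) and Cyc1 (cytochrome c1) carry electrons, and Uqcrc1 and Uqcrc2 are the core proteins. Uqcrc2 was at 202, 295, 311 and 275 CPM in female CRE- and at 123, 244, 206 and 158 CPM in female LKO. Female LKO replicates 2 and 3 lay within the CRE- range and replicates 1 and 4 below it. The edgeR log2 fold change of Uqcrc2 was -0.57 (SE 0.228) at an adjusted p of 0.158, and -0.39 without the 2 libraries. Uqcrc1, Uqcrfs1 and Cyc1 had female log2 fold changes of -0.53, -0.45 and -0.52, or -0.39, -0.18 and -0.26 without the 2 libraries, where the female median of the complex was -0.27 instead of -0.54. In the male comparison the complex had a median of 0.27, with all 9 genes above 0, and 0.044 without the 2 libraries, with 5 above 0. Cyc1 was at 148, 230, 88.0 and 203 CPM in male CRE- and at 158, 213, 167 and 209 CPM in male LKO. Male CRE- replicate 3 was the lowest of these 8 libraries. Small subunits were the most abundant per kilobase, with Uqcr11 at 337 CPM and Cyc1 the least at 116.

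Complex IV is assembled around catalytic subunits from mitochondrial DNA, and its nuclear subunits stabilize and regulate it. Cox4i1, a regulatory subunit, was at 309, 429, 169 and 410 CPM in male CRE- and at 374, 401, 365 and 450 CPM in male LKO. The male groups overlapped with and without male CRE- replicate 3, the lowest male library. In females Cox4i1 was at 311, 422, 460 and 563 CPM in female CRE- and at 139, 471, 366 and 351 CPM in female LKO, with female LKO replicate 1 the lowest and the other 3 within the CRE- range. The edgeR log2 fold changes of Cox4i1 were 0.27 (adjusted p of 0.822) in males and -0.40 (adjusted p of 0.521) in females. Without the 2 libraries they were 0.045 and -0.13. Cox5a, Cox5b and Cox6c had female log2 fold changes of -0.42, -0.49 and -0.51, and male ones of 0.26, 0.31 and 0.47. Without the 2 libraries these were -0.10, -0.24 and -0.18 in females and -0.015, 0.12 and 0.20 in males. The median of the complex was -0.41 in females and 0.40 in males. Without the 2 libraries it was -0.12 and 0.16, where the male median was above that of like-length genes, 0.077. These medians include Cox4i2, Cox6a2, Cox6b2, Cox7a1 and Cox8b, isoforms with few reads.

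Cox7a2l, a Cox7a gene, was at 96.0, 105, 119 and 123 CPM in female CRE- and at 65.2, 104, 104 and 116 in female LKO. Its female edgeR log2 fold change was -0.19 at an adjusted p of 0.7004, or -0.015 without the 2 libraries. In males it was at 73.6, 102, 50.2 and 116 CPM in male CRE- and at 130, 109, 99.3 and 116 CPM in male LKO, and its log2 fold change was 0.41 (SE 0.233), or 0.21 without the 2 libraries. Male CRE- replicate 3 was the lowest of these male libraries.

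In complex V, Atp5f1a, Atp5f1b and Atp5f1c encode the alpha, beta and gamma subunits of the catalytic head. Atp5f1b was the most abundant member per kilobase, at 562 CPM, ahead of Cox4i1 at 490. It was at 1024, 1322, 1310 and 1345 CPM in female CRE- and at 638, 1342, 914 and 932 CPM in female LKO. Female LKO replicate 1 was the lowest and female LKO replicate 2 lay within the CRE- range. The edgeR log2 fold change was -0.39 (SE 0.232) at an adjusted p of 0.364. Atp5f1a and Atp5f1c had female log2 fold changes of -0.45 and -0.64, with -0.085 and 0.15 in males. With the 2 left out, Atp5f1a, Atp5f1b and Atp5f1c had -0.32, -0.21 and -0.41 in females. In males Atp5f1a was at 719, 1090, 763 and 886 CPM in male CRE- and at 721, 869, 812 and 857 CPM in male LKO, and male CRE- replicate 3 lay within the range of both groups, unlike for most members. The median of the complex was -0.55 in females and 0.26 in males, and -0.29 and 0.030 without the 2 libraries.

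The c-ring subunit is encoded by 3 genes with the same mature product, Atp5mc1, Atp5mc2 and Atp5mc3. Per length, Atp5mc3 held a mean of 47.0% of their summed level, Atp5mc1 28.8% and Atp5mc2 24.2%, and the share of Atp5mc3 ranged from 40.9% to 52.6% over the libraries. Their female log2 fold changes were -0.53, -0.33 and -0.59, or -0.23, -0.065 and -0.29 without the 2 libraries. Atp5if1, which inhibits ATP hydrolysis by the enzyme, was the least abundant of the complex V genes per kilobase, at 14.2 CPM. It was at 18.6, 23.2, 23.5 and 36.5 CPM in female CRE- and at 12.9, 27.7, 35.1 and 24.96 CPM in female LKO, with wide overlap. The edgeR log2 fold change of Atp5if1 was -0.017 in females and 0.57 in males, with adjusted p of 0.988 and 0.674. In females the direction turned without the 2 libraries, where the log2 fold change was 0.22.

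Several complex IV genes have isoforms used in other tissues. Per length, the liver forms held nearly all of each pair: Cox4i1 99.9% against Cox4i2, Cox6a1 99.7% against Cox6a2 and Cox6b1 99.9% against the testis form Cox6b2. Cox8a held 99.7% against Cox8b, and Cox8c had 0 reads. Of the Cox7a genes, Cox7a2 held 58.7%, Cox7a2l 39.4% and the muscle form Cox7a1 1.88%. Cox7b2 and Cox8c had 0 reads in each library, where a count of 0 allows up to 0.106 to 0.180 CPM (3 read pairs per library, or 6 reads where both mates count, counting error only), and were not tested.

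Cox6a2, the heart and skeletal muscle form of Cox6a, was the member closest to the threshold in males. It had 1, 1, 0 and 6 reads in the male CRE- libraries and 70, 52, 96 and 82 in the male LKO libraries, or 0.0203, 0.0223, 0 and 0.135 CPM and 1.80, 1.08, 2.39 and 2.22 CPM. The 4 LKO libraries were all above the 4 CRE- libraries. The edgeR log2 fold change was 5.29 (SE 1.16) at an adjusted p of 0.0563, and rested on few reads in CRE-. With DESeq2 its adjusted p was 0.000111, and with edgeR it was 0.0358 without the filter on low counts. In females it was at 0.532, 0, 0 and 0.641 CPM in female CRE- and at 0.629, 0.848, 0.293 and 0.694 CPM in female LKO, where both groups overlapped. Groups did not overlap in 3 members in males, Cox6a2, Cox6b2 and Cox7a1, with LKO the higher, beside 3.57% of all tested genes with LKO higher and 2.92% with LKO lower. For Cox6b2 the gap was less than the CPM of 1 read, since it was at 0.243, 0.0446, 0 and 0.0449 CPM in male CRE- and at 0.257, 0.292, 0.248 and 0.432 CPM in male LKO, from 12 reads in male CRE- replicate 1 and 10 in male LKO replicate 3. In females 0 members were apart in either direction, beside 5.2% and 6.42% of all tested genes.

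Cox8b, also a muscle form, was at 0.0812, 0.178, 0 and 0.225 CPM in male CRE- and at 0.154, 0.583, 1.29 and 2.22 CPM in male LKO. In females it was at 0.311, 0.195, 0 and 0.962 CPM in female CRE- and at 0, 0.0997, 0.146 and 0 CPM in female LKO, or 60 reads in CRE- and 12 in LKO in all. For Cox8b edgeR gave log2 fold changes of 3.09 (adjusted p of 0.367) in males and -2.42 (adjusted p of 0.262) in females. The sex-by-genotype call by DESeq2 rests on these few reads. Cox8b passed the filter on low counts only through male LKO and female CRE- libraries, the groups in which it was high. That call is therefore no separate support for a difference.

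Cox7a1, another muscle form, was at 1.58, 1.25, 0.624 and 1.53 CPM in male CRE- and at 2.11, 1.83, 3.18 and 2.701 CPM in male LKO. Skeletal muscle markers were at different levels in these libraries. Ckm (muscle creatine kinase) was at 0, 0, 0 and 0.0449 CPM in male CRE- and 0.0514, 0.0833, 25.5 and 12.6 CPM in male LKO, and Acta1 (skeletal muscle actin), the most abundant of the 4 markers, at 0.0812, 0.178, 0 and 0 and 0.154, 0, 38.2 and 30.6 CPM. The markers summed to 0.0812, 0.490, 0.208 and 0.0449 CPM in male CRE-, 0.206, 0.167, 95.4 and 55.5 in male LKO, 4.17, 0.117, 0.0479 and 22.9 in female CRE- and 0.403, 9.77, 1.13 and 0.463 in female LKO. Male LKO replicates 3 and 4 were high in the markers, and replicates 1 and 2 were near 0. Across male LKO replicates 1 to 4, Cox6a2 was at 1.80, 1.08, 2.39 and 2.22 CPM and Cox8b at 0.154, 0.583, 1.29 and 2.22 CPM. edgeR called 0 of 4 markers in males, with 4 at an unadjusted p under 0.05, while DESeq2 called 2 and limma-voom 0. The part of muscle RNA in the levels of Cox6a2, Cox8b and Cox7a1 was not tested. Of 4 adipocyte markers, Cfd (complement factor D) was the most abundant, at 3.85, 21.5, 0.780 and 22.0 CPM in male CRE- and 0.0514, 103, 9.17 and 79.1 CPM in male LKO.

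**Figure D3:**
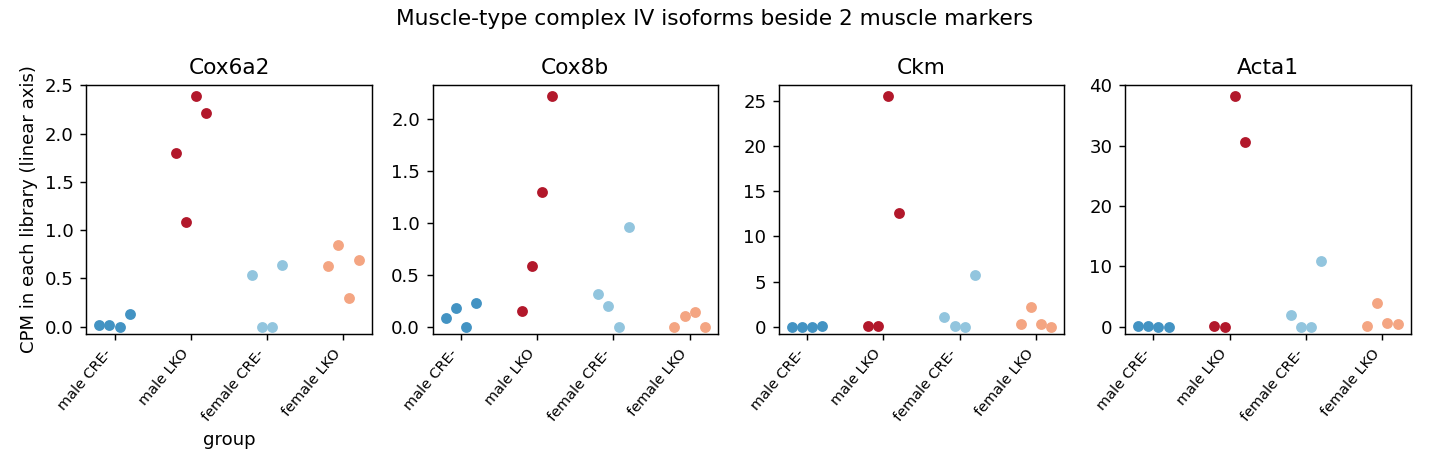
CPM (vertical axis, linear) of Cox6a2 and Cox8b, and of the muscle markers Ckm and Acta1, in each library of the 4 groups (horizontal axis), 1 point per library. The 4 male LKO libraries lie at 1.08 to 2.39 CPM for Cox6a2 and at 0.154 to 2.22 CPM for Cox8b, and 2 of them are near 0 for Ckm. The part of muscle RNA in these levels was not tested.

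Complex I, the closest group of genes, was taken as all symbols starting with Nduf, of which 54 were found and 52 tested. The rule does not separate subunits from other genes of that prefix. Of the 52 Nduf genes edgeR called 0 in males and 0 in females, with 0 and 12 at an unadjusted p under 0.05, beside 9.53% and 21.4% of all tested genes. DESeq2 called 0 and 4 of the Nduf genes and limma-voom 0 and 1, where in females these tools called 10.8% and 11.8% of all genes. The medians of the Nduf genes were 0.25 and -0.45, and 0.093 and -0.18 without the 2 libraries, beside 0.31, -0.50, 0.071 and -0.24 for the complex II to V genes. The 6 subunits of complexes III to V from mitochondrial DNA had medians of -0.030 in males and -0.75 in females, with 0 and 0 called by edgeR, 0 and 2 at an unadjusted p under 0.05, 0 and 2 called by DESeq2 and 0 and 2 by limma-voom. Without the 2 libraries the medians were 0.11 and -0.61. Of these, COX1 was at 17734, 24244, 21044 and 22242 CPM in female CRE- and 13401, 15419, 13912 and 9632 CPM in female LKO, where all 4 LKO libraries lay below the CRE- libraries, at an edgeR log2 fold change of -0.70 and an adjusted p of 0.0927. Counts of some mitochondrial genes are uncertain, since nearly identical copies lie in the nuclear genome.

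Assembly factors and other mitochondrial genes of fixed lists gave 0 calls by edgeR in either sex. The median log2 fold changes in females were -0.27 for 4 complex II assembly factors, -0.41 for 9 of complex III, -0.31 for 22 of complex IV and -0.29 for 5 of complex V. In males they were 0.41, 0.39, 0.18 and 0.21. Leaving the 2 out gave medians of -0.10, -0.23, -0.15 and -0.14 in females and 0.19, 0.14, 0.034 and 0.039 in males. Electron carriers and matrix enzymes had -0.36 in females and 0.14 in males, and genes of the outer membrane, import and cristae -0.35 and 0.18. ADP/ATP and phosphate carriers had 0.36 and 0.23, and in females 2 of the 4 lay above 0 and 2 below, from -0.29 to 1.93. These 3 lists, with the 2 libraries left out, had -0.23, -0.20 and 0.23 in females and 0.040, 0.094 and 0.040 in males. The 14 regulators of respiratory gene transcription lay on both sides of 0, from -0.92 to 0.83 in females (median -0.038) and from -0.92 to 0.44 in males (median -0.010). Of the 92 genes, 18 in females and 5 in males were at an unadjusted p under 0.05, beside 21.4% and 9.53% of all tested genes, while DESeq2 called 5 and 0 and limma-voom 7 and 0, tools whose shares over all genes are given above.

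Cell type markers were given beside the members. Macrophage markers (6 tested, Clec4f the most abundant) summed to 526, 379, 402 and 756 CPM in female CRE- and 2666, 603, 1385 and 903 CPM in female LKO. Female LKO replicate 1, low in the members, was the highest. Of these markers edgeR called only Adgre1 in females, where its log2 fold change was 2.15 (adjusted p of 0.0451), while DESeq2 called 4 and limma-voom 5, all higher in LKO. The female median of the 6 was 1.44, with 5 at an unadjusted p under 0.05, and without the 2 libraries it was 0.90, with 0 called by edgeR and 3 at an unadjusted p under 0.05. In males the sums were 590, 309, 186 and 871 CPM in CRE- and 809, 440, 482 and 450 CPM in LKO, where male CRE- replicate 3 was the lowest. The part of a different share of macrophages in the members' differences was not tested.

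Neutrophil markers (4 found, 3 tested, S100a9 the most abundant) summed to 24.2, 13.5, 10.4 and 12.9 CPM in female CRE- and 69.1, 28.1, 39.5 and 458 CPM in female LKO, with no overlap and with female LKO replicate 4 the highest. In males they summed to 52.0, 12.8, 6.73 and 109 CPM in CRE- and 15.98, 9.97, 7.25 and 6.75 CPM in LKO. The median log2 fold changes were 3.17 in females and -2.23 in males, and 3.42 and -2.61 without the 2 libraries. edgeR called 0 in females and 0 in males, with 3 and 2 at an unadjusted p under 0.05. In females DESeq2 called 3, limma-voom 1 and edgeR without the 2 libraries 1. The part of neutrophils in the members' levels was not tested.

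Hepatocyte markers summed to 137964, 130344, 136177 and 159370 CPM in female CRE- and 81126, 114944, 102688 and 118672 CPM in female LKO, with each LKO sum below each CRE- sum. In males they summed to 83280, 111642, 136823 and 110499 CPM in CRE- and 77113, 84939, 103686 and 85369 CPM in LKO, with male CRE- replicate 3 the highest. Their medians were -0.37 in females, with 7 of 8 below 0, and -0.17 in males, or -0.26 and -0.093 without the 2 libraries. The part of the hepatocyte share in the members' levels was not tested. Of the hepatocyte markers, edgeR called 0 of 8 in either sex, with 2 and 2 at an unadjusted p under 0.05 in females and males, while DESeq2 called 1 and 0 and limma-voom 0 and 0. T and NK, B and plasma, endothelium, stellate and fibroblast, cholangiocyte and erythroid markers gave 0 calls by edgeR in either sex, with 1 of 24 at an unadjusted p under 0.05 in females and 3 in males, while DESeq2 called 0 and 0 and limma-voom 1 and 0.

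The members lie on 18 chromosomes, of which X holds 1, Cox7b. On GRCm39, Sdha spans 74470374 to 74498359 on chromosome 13, Sdhb 140688582 to 140706509 on chromosome 4 and Cox6a2 127804607 to 127805538 on chromosome 7. No exon of a member overlaps an exon of another gene of the table on the same strand, and 8 members overlap one on the opposite strand. Reads were counted by strand. Short subunit genes of this kind are known to have processed pseudogenes, so their counts are uncertain.

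Promoters are shown because genes of the respiratory chain are known to carry binding letters for NRF1, ETS-family factors and YY1. RefSeq promoter windows (GRCm38.p6, 300 bases around the start) were matched for 35 of 49 members by symbol or older symbol, and searched on both strands for GCGCATGCG (NRF1), CCGGAAGT (ETS) and AAGATGGCG (YY1). NRF1 letters were in 6 members (17.1%) against 1.95% of 27025 genes, ETS letters in 4 (11.4%) against 4.31%, and YY1 letters in 2 (5.71%) against 1.64%. A match is a description of these letters only, and the NRF1 letters overlap their own reverse complement where both are found. The 27025 genes were not limited to tested genes, and a link of the letters to the fold changes was not tested. Uqcr11, which holds NRF1 and ETS letters, Cox6a1 with NRF1, Cox8a with ETS and Atp5mf with YY1 are printed 5′ to 3′ on the strand of the gene, with matches in capitals. They lie, on GRCm38.p6, at chr10:80406772-80407071 (minus strand) for Uqcr11, chr5:115348909-115349208 (minus strand) for Cox6a1, chr19:7217567-7217866 (minus strand) for Cox8a and chr5:145191492-145191791 (minus strand) for Atp5mf.
Uqcr11: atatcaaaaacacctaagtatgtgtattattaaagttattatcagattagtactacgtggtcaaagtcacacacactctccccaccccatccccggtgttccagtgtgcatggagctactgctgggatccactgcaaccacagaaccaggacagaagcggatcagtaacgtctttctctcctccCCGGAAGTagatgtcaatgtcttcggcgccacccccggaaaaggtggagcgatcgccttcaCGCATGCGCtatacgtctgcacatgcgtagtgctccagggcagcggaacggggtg
Cox6a1: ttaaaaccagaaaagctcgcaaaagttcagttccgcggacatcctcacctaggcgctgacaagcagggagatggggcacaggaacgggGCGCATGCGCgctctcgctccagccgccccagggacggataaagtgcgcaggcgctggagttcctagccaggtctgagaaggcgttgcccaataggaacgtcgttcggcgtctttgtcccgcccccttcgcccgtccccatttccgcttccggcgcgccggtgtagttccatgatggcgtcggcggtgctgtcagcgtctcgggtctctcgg
Cox8a: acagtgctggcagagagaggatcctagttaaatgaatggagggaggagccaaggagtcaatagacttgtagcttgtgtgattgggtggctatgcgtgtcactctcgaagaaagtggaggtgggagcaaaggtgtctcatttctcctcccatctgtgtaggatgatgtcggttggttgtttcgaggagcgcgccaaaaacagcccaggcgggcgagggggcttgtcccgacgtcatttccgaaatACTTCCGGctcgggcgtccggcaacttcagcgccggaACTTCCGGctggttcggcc
Atp5mf: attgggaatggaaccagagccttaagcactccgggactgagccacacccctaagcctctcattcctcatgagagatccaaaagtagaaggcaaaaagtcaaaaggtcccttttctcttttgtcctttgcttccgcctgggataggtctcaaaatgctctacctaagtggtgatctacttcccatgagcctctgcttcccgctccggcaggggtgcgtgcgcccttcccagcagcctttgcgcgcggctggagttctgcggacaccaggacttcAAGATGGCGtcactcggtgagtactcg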

How the data were processed

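Liver RNA from 16 mice was measured by poly-A RNA-seq. The authors aligned reads with STAR 2.7.1a to GRCm39 and counted them per gene with featureCounts (Subread 2.0.6) by strand, as their notes state, and deposited whole-number counts of reads, 2 per read pair where both mates mapped, with a gene Length. Replicates are different mice. From these counts, edgeR 4.0.16 (R 4.3.3) fitted all 16 libraries in 4 groups with TMM factors and quasi-likelihood tests, after filterByExpr at a minimum count of 10, which left 16742 of 41079 genes and 47 members. P-values were adjusted by Benjamini-Hochberg over all tested genes. The printed SE is the size of the log2 fold change divided by the square root of its F statistic. DESeq2 1.42.0 and limma 3.58.1 served as alternatives, with other normalizations, filters, samples, a replicate block and a length trend. Named members were fixed by rule: core or catalytic subunits, the complex V inhibitor, complex IV tissue isoforms, c-ring genes, members past the threshold, members not tested, and list genes past the threshold. Ckm, Acta1, Cfd, Alb, Clec4f, S100a9, COX1, Uqcr11, Uqcrb, Cox7c, Cox7b and Atp5mf fall outside it and were named after their values were seen. Members and lists were chosen with earlier results of these data known. The listed mt-Cytb, mt-Co1 to mt-Co3, mt-Atp6, mt-Atp8 and Tf were looked up as CYTB, COX1 to COX3, ATP6, ATP8 and Trf.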

Additional observations from a re-analysis of the deposited data

Results flagged for a closer look

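In 140 tests of a group of 4 libraries for a library far from the others, 5 passed Dixon's critical value. Chance alone gives about 7 (1 in 20 groups). Members move together within a library, with male CRE- replicate 3 and female CRE- replicate 1 the lowest of their groups for most members. The tests are therefore not independent, and this number cannot tell whether a flag is chance. Cox6a2 was far above the rest of its group in male CRE- replicate 4, at 0.135 CPM. Cox8a was far below the rest of its group in male CRE- replicate 3, at 48.3 CPM. Sdha was far below the rest of its group in male LKO replicate 1, at 355 CPM. Atp5f1b was far below the rest of its group in female CRE- replicate 1, at 1024 CPM. Cox7a2 was far below the rest of its group in female CRE- replicate 1, at 89.2 CPM.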

How the results depend on the processing

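Members called moved from 0 in some settings: 1 in males with DESeq2 (2.02% of all genes), 1 in males with no filter on low counts (0.345% of all genes), 1 in males with each sex fitted alone (0.686% of all genes, Cox6a2, kept by the filter through its LKO reads alone), 2 in females with DESeq2 (10.8% of all genes), 2 in females with the replicate block (7.43% of all genes), 4 in females with limma-voom with sample weights (11.8% of all genes), 3 in females with the length trend removed (6.96% of all genes) and 1 in the sex-by-genotype term with DESeq2 (2.22% of all genes). Leaving out each mouse gave 0 to 2 members called in females, the higher number without female LKO replicate 2 (7.66% of all genes). Cox6a2 was called in males without female CRE- replicate 2 (edgeR adjusted p of 0.0346, 0.293% of all genes) and without female CRE- replicate 3 (0.0385, 0.321% of all genes). The labels do not say that equal replicate numbers share anything, and the rule for a paired reading, each same-numbered correlation of deviations over 0.1, was not met: the values were 0.17, 0.17, 0.14 and -0.013 between the male groups, 0.17, 0.10, 0.12 and 0.028 between the female groups, 0.21, 0.20, 0.027 and 0.33 between the CRE- groups and 0.15, 0.031, -0.14 and 0.034 between the LKO groups. Of 16 libraries, 9 correlated best with their own number among 4 partners of the other genotype, counted from both sides. Chance alone gives 1 in 4, which is fewer, though not each library did so. Both sides of a pair use the same correlation, so the 16 are not independent, and no test was run. The replicate block moved the members called in females to 2, Sdha and Sdhb (edgeR adjusted p of 0.0196 and 0.0274), and left 0 in males and for the sex-by-genotype term. The male median of the members ranged from 0.039 to 0.32 over settings and from 0.066 to 0.45 with 1 mouse left out. The female median of the members ranged from -0.55 to -0.24 over settings and from -0.72 to -0.24 with 1 mouse left out. The sex-by-genotype median of the members ranged from -0.86 to -0.32 over settings and from -0.997 to -0.52 with 1 mouse left out. Changes of sign are listed below for the named members only. With limma-voom with sample weights, signs differed: the male log2 fold change was 0.026 for Sdha and 0.028 for Sdhb, and the female log2 fold change was 0.34 for Atp5if1, and the sex-by-genotype log2 fold change was 0.12 for Cox6b2. With the length trend removed, signs differed: the male log2 fold change was -0.030 for Sdhc, -0.066 for Uqcrc1, -0.013 for Uqcrfs1, -0.039 for Atp5f1b and -0.041 for Atp5mc3. With both low libraries left out, signs differed: the male log2 fold change was -0.025 for Sdhc, -0.049 for Uqcrc1, -0.028 for Uqcrfs1, -0.063 for Cyc1, -0.015 for Cox5a, -0.031 for Atp5f1b, -0.0073 for Atp5f1c, -0.027 for Atp5mc1 and -0.14 for Atp5mc3, and the female log2 fold change was 0.22 for Atp5if1, and the sex-by-genotype log2 fold change was 0.45 for Cox6b2 and 0.034 for Cox7a1. Over all 47 tested members, 16 lay below 0 in males there, beside 4 with all libraries. With both low libraries left out and the length trend removed, signs differed: the male log2 fold change was -0.063 for Sdhc, -0.088 for Uqcrc1, -0.073 for Uqcrfs1, -0.10 for Cyc1, -0.060 for Atp5f1b, -0.041 for Atp5f1c, -0.061 for Atp5mc1 and -0.19 for Atp5mc3, and the female log2 fold change was 0.14 for Atp5if1, and the sex-by-genotype log2 fold change was 0.26 for Cox6b2. With upper-quartile factors, signs differed: the female log2 fold change was 0.040 for Atp5if1. With at least 10 counts in every library, signs differed: the female log2 fold change was 0.024 for Atp5if1. With each sex fitted alone, signs differed: the female log2 fold change was 0.0047 for Atp5if1. With the replicate block, signs differed: the female log2 fold change was 0.031 for Atp5if1. With 1 mouse left out, log2 fold changes that crossed 0 ranged, in males unless given, over -0.19 to 0.043 for Sdha, -0.16 to 0.13 for Sdhb, -0.030 to 0.28 for Sdhc, -0.053 to 0.25 for Uqcrc1, -0.033 to 0.32 for Uqcrfs1, -0.067 to 0.35 for Cyc1, -0.020 to 0.42 for Cox5a, -0.17 to 0.047 for Atp5f1a, -0.034 to 0.26 for Atp5f1b, -0.012 to 0.30 for Atp5f1c, -0.031 to 0.33 for Atp5mc1, -0.15 to 0.28 for Atp5mc3, -0.22 to 0.23 for Atp5if1 (female), -0.30 to 0.78 for Cox7a1 (female) and -1.62 to 0.18 for Cox6b2 (sex-by-genotype). The cause was not tested. Over the members' full Length range, other genes had medians of 0.14 in males and -0.062 in females. In simulated counts with 200 genes changed in female LKO, edgeR called 187 of them and 15 unchanged genes, limma-voom 185 and 15, and DESeq2 196 and 43. These counts compare the tools only and give no rate of detection at the fold changes of the members. Depth limits Cox6a2, Cox6b2, Cox8b and Cox4i2, which had few reads. Cox8b was kept by the filter only through male LKO and female CRE- reads.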
